A study of Homo sapiens with 9 samples.

Results

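The miR-320 family comprises miRNAs named miR-320a to miR-320e, which share almost the same mature sequence and come from several places in the genome. All names of the count table that begin with miR-320 and a letter were taken as members, and reads of loci with the same name were added. This gave 6 members of 2652 miRNA names, namely miR-320a-3p, miR-320a-5p, miR-320b, miR-320c, miR-320d and miR-320e. Small RNA was sequenced from lysates of ES-2, an untreated and genetically unmodified (WT) cell line derived from ovarian cancer, in 9 libraries. The input group (n = 3), also called the lysate, held RNA before purification. The MS2 control group (n = 3) held RNA that came off a resin loaded with an RNA of MS2 loops alone, and the PD-L1 3'UTR group (n = 3) held RNA that came off the same resin loaded with an MS2-tagged 3'UTR of PD-L1 mRNA, here called the 3'UTR eluate. This purification, termed miTRAP, asks which miRNAs of the lysate associate with the 3'UTR. The methods give the PD-L1 bait in a larger amount than the MS2 bait, so bait sequence and bait amount cannot be told apart. All libraries come from 1 cell line. The methods describe experiments in general as biological triplicates or more, without saying what separated the replicates of these libraries, and p values measure the spread between them.

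Most miRNAs are cut from long transcripts in the nucleus by Drosha and then from a hairpin by Dicer. The miR-320a hairpin is the textbook exception. It is transcribed directly as a short RNA whose 5' end carries the cap of RNA polymerase II, leaves the nucleus through exportin-1 and needs Dicer but not Drosha. The cap hinders use of the 5p arm, so the 3p arm serves as the guide. Whether the copies miR-320b to miR-320e are made in the same way was not tested.

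The mature sequences show how little separates the members. RefSeq (GRCh38.p14) gave a sequence for 4 of the 6 names, with bases 2 to 8, the seed by which a miRNA pairs with its targets, in capitals.
miR-320b: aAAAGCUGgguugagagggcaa
miR-320c: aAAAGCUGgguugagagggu
miR-320d: aAAAGCUGgguugagagga
miR-320e: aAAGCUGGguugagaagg
miR-320b, miR-320c and miR-320d have the same seed and are 22, 20 and 19 bases long. Counted from 1 at the 5' end of miR-320b, miR-320c differs by C20U and miR-320d by G19A. Thus, miR-320b and miR-320c are identical over their first 19 bases, and miR-320d is identical to both over 18. miR-320e, with 18 bases, starts 1 base later, which shifts its seed, and differs from miR-320b by G17A. Reads that end before the differing base fit more than one member, and how such reads were assigned is not given in the sources used here. The split of counts between members is therefore uncertain, which the family sum avoids.

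The copies are spread over the genome (GRCh38.p14). miR-320b lies on the forward strand at chr1:116671787-116671808, within no other listed gene, and on the reverse strand at chr1:224257049-224257070, within NVL. miR-320c has copies on the forward strand at chr18:21683559-21683578, within ABHD3, and at chr18:24321716-24321735, within OSBPL1A. miR-320d maps to the reverse strand at chr13:40727828-40727846 and chrX:140926172-140926190, outside other listed genes. miR-320e maps to the reverse strand at chr19:46709294-46709311, within PRKD2. Gene spans did not separate exons from introns. In the hairpin, the mature sequence begins at base 42 of 72 at 5 of these 7 loci, at base 41 of 71 for the second miR-320b copy and at base 44 of 73 for miR-320e, so all of them lie in the 3' arm.

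The libraries held between 672824 and 5983577 miRNA counts, with the lowest depth in PD-L1 3'UTR replicate 2. Levels are given as CPM, counts for each 1000000 counts of a library scaled by TMM factors, which assume that most miRNAs do not change. They are relative to the other miRNAs of a library and do not give the amount retained from the lysate. In these units 3 counts, taken as the floor of detection, were worth 0.676 to 4.02, and such floors cover counting error only. Of all names, 408 passed the filter on low counts and were tested, among them 4 of the 6 members. miR-320a-5p and miR-320e did not pass and are described by their counts. The cell line has no defining list of miRNA markers here. Among markers of tissue classes, the summed level was between 6520 and 7740 CPM for 5 mesenchymal miRNAs in the input, between 41.5 and 55.5 CPM for 5 epithelial ones, between 189 and 265 CPM for 4 leukocyte ones and between 3.42 and 4.72 CPM for 3 erythroid ones. The mesenchymal sum in the input was nearly all miR-199a-3p (mean 6105 CPM) and miR-199a-5p (1163 CPM). Of the other mesenchymal markers, miR-143-3p had 8.74 CPM there and 1 had 0 counts. miR-122-5p, a liver miRNA, was between 1.58 and 3.42 CPM in the input. In the MS2 control these sums spanned 4140 to 5580, 55.2 to 78.2, 226 to 303, 34.9 to 92.3 and 40.1 to 50.4 CPM, in the same order. In the 3'UTR eluate they were highest in replicate 1, at 17800, 236, 687, 822 and 161 CPM, against 8480, 63.1, 543, 45.6 and 0 CPM in replicate 2 and 8430, 37, 464, 79.8 and 0.726 CPM in replicate 3. PD-L1 3'UTR replicate 1 also correlated least with the others of its group (Pearson's r of log2 CPM over miRNAs 0.948 and 0.95, against 0.977 between replicates 2 and 3). Without it, no call of the 4 tested members changed.

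As a family, miR-320 was a minor part of the lysate, was relatively more abundant on the control resin and was scarce in the 3'UTR eluate. It took 0.3826%, 0.3407% and 0.3225% of the counts in input replicates 1, 2 and 3. In the MS2 control these shares were 0.9802%, 0.8647% and 0.903%, and in the 3'UTR eluate 0.1718%, 0.1821% and 0.192%. The 3 groups did not overlap. Such separation was common, as TMM-scaled levels of 65.7% of all tested miRNAs did not overlap between the 3'UTR eluate and the MS2 control. Against the input the shares were 74.8% for the 3'UTR eluate and 75.5% for the MS2 control. On the TMM scale the family sum was 4601 CPM ± 430 (SD, n = 3) in the lysate, 7814 CPM ± 126 for the MS2 control and 1621 CPM ± 106 in the 3'UTR eluate. The sum in the MS2 control was thus 1.70-fold the input and 4.82-fold the 3'UTR eluate. Scaling set the size of the difference from the lysate. As shares of all counts, the MS2 control was 2.63-fold the input, and the input was 1.92-fold the 3'UTR eluate rather than 2.84-fold.

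miR-320a-3p, the guide strand of the capped hairpin, made up nearly all of this signal. It reached 4754, 4054 and 4046 CPM in input replicates 1, 2 and 3, and 7201, 7068 and 7268 CPM in the MS2 control. With the PD-L1 3'UTR it had 1255, 1401 and 1498 CPM. By mean level it ranked 30 of the 408 tested miRNAs in the input, 24 in the MS2 control and 62 in the 3'UTR eluate. Its partner strand miR-320a-5p was nearly absent, with 4, 5 and 10 counts in the input libraries against 18071, 12025 and 17959 counts of the 3p arm. In the MS2 control it had 0, 0 and 3 counts, and in the 3'UTR eluates 0 counts each, which allows up to 2.12, 4.02 and 2.18 CPM in replicates 1, 2 and 3. These floors lie near or above its input level of 1.66 CPM ± 0.60 (SD, n = 3), so a loss after trapping was not detectable at this depth.

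miR-320b followed at a lower level, with 279.9, 247.1 and 244.7 CPM in the lysate, a mean of 456.6 CPM ± 34.43 (SD, n = 3, from 766, 1082 and 589 counts) in the control eluates and 150.8, 148.9 and 132.1 CPM in the 3'UTR eluate. The order of the groups was that of miR-320a-3p, again without overlap, as for 65.7% to 75.5% of all tested miRNAs, depending on the comparison. miR-320c had 51.3, 49.22 and 48.89 CPM in the lysate, 126.7, 140.4 and 152.8 CPM in the control eluates and 71.5, 72.45 and 59.5 CPM in the 3'UTR eluate, so here the lysate was the lowest group. miR-320d had 9.73, 5.06 and 3.38 CPM in the lysate, 41.38, 25.38 and 25.73 CPM in the control eluates and 24.07, 20.12 and 21.77 CPM in the 3'UTR eluate. The input libraries of miR-320d lay below all others, and its trapped groups stood close to each other without overlapping. miR-320e had between 1 and 15 counts in any library, with mean levels of 2.03 CPM ± 0.90 in the lysate, 6.59 CPM ± 1.02 in the control eluates and 2.35 CPM ± 1.65 in the 3'UTR eluate. Its MS2 control libraries lay above all others, whereas its input and PD-L1 3'UTR libraries overlapped. Within every group the levels were ordered miR-320a-3p, miR-320b, miR-320c, miR-320d and miR-320e, with no overlap between neighbours.

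**Figure D1:**
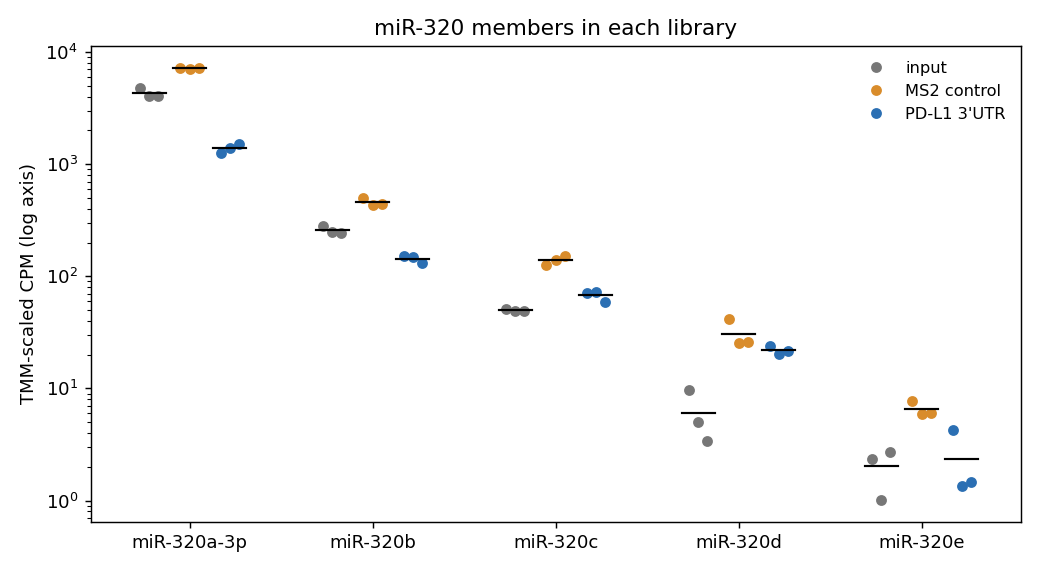
TMM-scaled CPM on a log axis for 5 members in each of the 9 libraries, colored by group, with bars at the group mean of 3 libraries (miR-320a-5p, with 0 counts in 5 libraries, is not drawn). The MS2 control is the highest group for all 5 members, whereas the 3'UTR eluate is the lowest for miR-320a-3p and miR-320b but not for miR-320c and miR-320d.

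The MS2 control against the input gives the background of the purification. By edgeR's quasi-likelihood test with Benjamini-Hochberg adjustment over the 408 miRNAs, 4 of the 4 tested members were higher in the MS2 control and 0 were lower, where 32.8% of all tested miRNAs were higher and 37% were lower (48.8% and 25.5% with library totals). The log2 fold change was 0.74 ± 0.12 (SE) for miR-320a-3p (adjusted p = 0.00026) and 0.83 ± 0.15 for miR-320b (adjusted p = 0.000547). It was larger for miR-320c, at 1.49 ± 0.19 (adjusted p = 5.59e-05), and for miR-320d, at 2.34 ± 0.41 (adjusted p = 0.000504), which corresponds to 1.68-, 1.77-, 2.81- and 5.05-fold, respectively. The median of the 4 was 1.16, beside 0.02 over all tested miRNAs. miR-320d, with 37, 15 and 15 counts in the input, passed the filter only through the trapped groups, where it was higher. The count of 4 and this median therefore lean on the filter for miR-320d. Its call held in all 18 alternative settings, also without a filter. When all 1500 miRNAs with at least 1 count were tested, miR-320b no longer passed the threshold (0.56, adjusted p = 0.104), and miR-320e had 1.39 ± 0.81 (adjusted p = 0.246). miR-320e cleared the filter in some fits on fewer libraries. It was higher in the MS2 control when only these 2 groups were fitted (1.61, adjusted p = 0.0257) and without PD-L1 3'UTR replicate 1, 2 or 3 (adjusted p = 0.0382, 0.0433 and 0.0419), and did not pass without MS2 control replicate 1 or 3 (adjusted p = 0.072 and 0.0644). In each of these fits it cleared the filter through the MS2 control, where its level was highest, so these calls lean on the filter.

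Comparing the 3'UTR eluate with the MS2 control asks what the 3'UTR retained beyond loops and resin. Of the 4 tested members, 3 were lower in the 3'UTR eluate and 0 were higher, and 28.7% of all tested miRNAs were lower and 31.4% higher. Without an adjustment, the number of members higher at p under 0.05 was also 0, as it was with DESeq2. miR-320a-3p fell by 2.37 (log2, SE 0.12, adjusted p = 5.81e-08), so that the level in the MS2 control was 5.19-fold that in the 3'UTR eluate. miR-320b fell by 1.67 (SE 0.15, adjusted p = 4.16e-06), or 3.17-fold, and miR-320c by 1.05 (SE 0.19, adjusted p = 0.000674), or 2.07-fold. miR-320d had -0.48 ± 0.40 (adjusted p = 0.326), with an approximate 95% interval of the log2 fold change from -1.26 to 0.30, so equal levels and a 2-fold lower level both lie within it. The median of the 4 was -1.36, against 0.02 for all miRNAs. miR-320e had -1.40 ± 0.89 (adjusted p = 0.302) in the test of 1500 miRNAs.

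Against the input, which shares the PD-L1 3'UTR libraries with that comparison, the members went opposite ways. Here 2 members were lower and 1 was higher in the 3'UTR eluate, where 32.4% of all tested miRNAs were lower and 34.1% higher. miR-320a-3p fell by 1.63 (SE 0.12, adjusted p = 1.11e-06) and miR-320b by 0.84 (SE 0.15, adjusted p = 0.00065). miR-320d rose by 1.86 (SE 0.42, adjusted p = 0.00266), or 3.63-fold, but entered the test only through the trapped groups, where it was higher. miR-320c had 0.44 ± 0.19 (adjusted p = 0.0596). These calls depended on the scaling for the middle members. When library totals replaced the TMM factors, miR-320b had -0.27 and no longer passed (adjusted p = 0.154), whereas miR-320c passed at 1.01 (adjusted p = 0.000694). The median of all miRNAs was 0.60 with library totals and 0.04 with TMM, and with library totals 47.1% of all tested miRNAs were higher and 21.8% lower. miR-320c also passed with DESeq2's size factors (0.52, adjusted p = 0.0338) and in the DESeq2 test (0.52, adjusted p = 0.0366). The fall of miR-320a-3p and the rise of miR-320d passed under each of these settings.

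**Figure D2:**
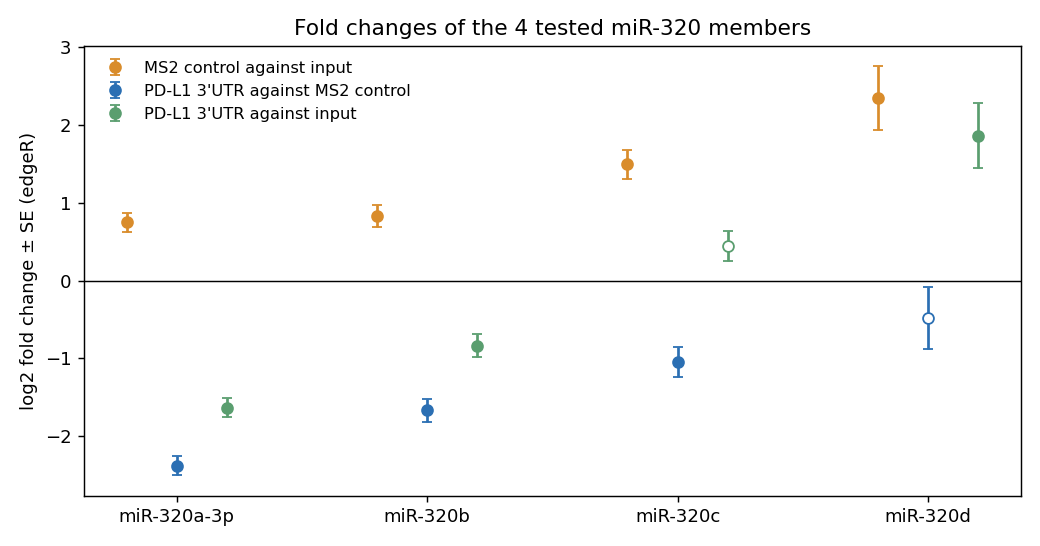
Log2 fold change of the 4 tested members in the 3 comparisons, with bars for 1 SE from edgeR; filled points have an adjusted p under 0.05. In each comparison the values increase from miR-320a-3p to miR-320d, from 0.74 to 2.34 for the MS2 control against the input and from -2.37 to -0.48 for the PD-L1 3'UTR against the MS2 control. Values for the PD-L1 3'UTR against the input are fixed by these other comparisons.

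In all 3 comparisons the log2 fold changes thus followed the order miR-320a-3p, miR-320b, miR-320c and miR-320d, which is also the order of falling level and, for the 3 of them with a sequence, of falling length. All come from 3 group means, so the values of the 3'UTR eluate against the input are fixed by the other comparisons. Their order there is no separate observation. Whether level, length or read assignment has a part in this order was not tested. The composition of the family, which does not depend on how libraries are scaled, differed accordingly. miR-320a-3p took 93.1% ± 0.12 (SD, n = 3) of the family counts in the input, 91.9% ± 0.359 in the MS2 control and 85.3% ± 2.06 in the 3'UTR eluate. miR-320b took 5.60% ± 0.0941, 5.84% ± 0.389 and 8.93% ± 1.16, respectively. miR-320c took 1.09% ± 0.0697, 1.79% ± 0.166 and 4.21% ± 0.661, and miR-320d 0.128% ± 0.0576, 0.394% ± 0.114 and 1.36% ± 0.204, both without overlap between groups. The share of miR-320e was 0.0439% ± 0.0196, 0.0842% ± 0.0124 and 0.150% ± 0.115, and the last value rested on 0.282% in replicate 1 against 0.0816% and 0.0847% in replicates 2 and 3.

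**Figure D3:**
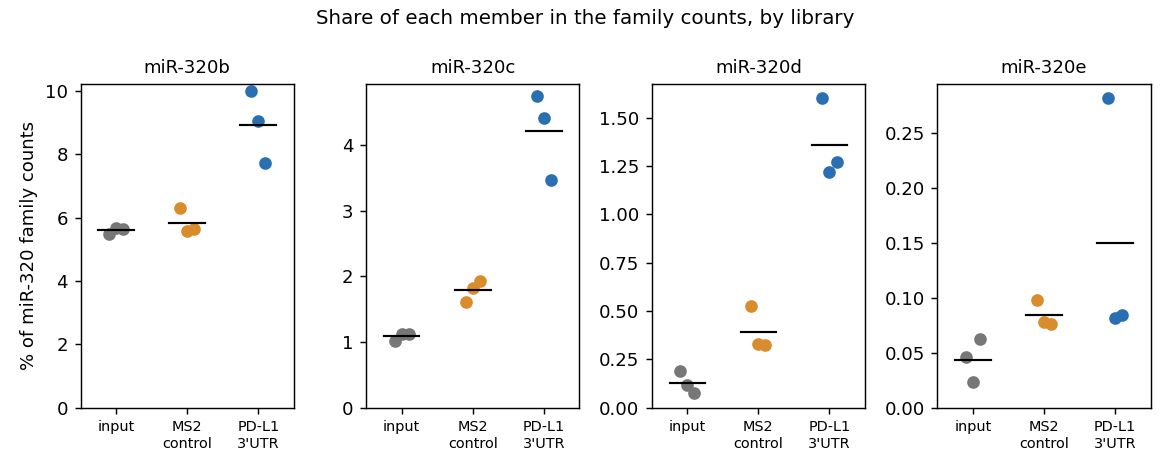
Percent of the miR-320 family counts taken by miR-320b, miR-320c, miR-320d and miR-320e in each of the 9 libraries, each panel with its own axis from 0 and bars at the group mean. The shares of miR-320c and miR-320d are separate in the 3 groups, with means of 1.09%, 1.79% and 4.21% for miR-320c, whereas that of miR-320b overlaps between the input and the MS2 control.

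The ratio of each member to miR-320a-3p within a library was compared by an exact permutation test (two-sided, 3 against 3 libraries), which cannot go below p = 0.1. Of the 12 ratios and comparisons, 11 did not overlap between groups and reached this smallest exact p of 0.1 (0.109 after adjustment over the 12), and none could pass the threshold. All 12 share miR-320a-3p as denominator. Its own log2 fold change was -2.37 for the 3'UTR eluate against the MS2 control and -1.63 against the input. For the MS2 control against the input it was 0.74. Over all tested miRNAs the medians were 0.02, 0.04 and 0.02, in the same order. Groups can therefore separate through miR-320a-3p alone, so the count of 11 does not by itself describe the other members. These ratios had 0.5 added to each count. With no count added, 10 did not overlap, since miR-320e, with 1 and 2 counts in PD-L1 3'UTR replicates 2 and 3, then overlapped between the 3'UTR eluate and the MS2 control (exact p = 0.3). For levels of single tested miRNAs, libraries did not overlap for 65.7% (3'UTR eluate against MS2 control), 74.8% (3'UTR eluate against input) and 75.5% (MS2 control against input). The share for ratios of all miRNAs to miR-320a-3p was not computed, so the 11 ratios have no matching background. From the MS2 control to the PD-L1 3'UTR, the ratio to miR-320a-3p was 1.64-fold higher for miR-320b, 2.53-fold for miR-320c and 3.84-fold for miR-320d. From the input to the PD-L1 3'UTR, these values were 1.74, 4.21 and 12.3. From the input to the MS2 control, miR-320b was the exception that overlapped, with a ratio 1.06-fold higher (exact p = 0.2), while miR-320c and miR-320d were 1.67- and 3.19-fold higher. Across the 9 libraries, the log2 level of miR-320b followed that of miR-320a-3p with Pearson's r of 0.968, miR-320c with 0.507 and miR-320d with -0.009. The libraries form 3 groups, so these coefficients describe the group pattern only.

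The members with more than 1 locus have identical mature sequences at each, and their counts were split nearly evenly. For miR-320b the first copy on chromosome 1 held between 44.1% and 60.1% of the counts in any library. For miR-320c, the first copy on chromosome 18 held between 42.9% and 53.4%. For miR-320d, the copy on chromosome 13 held 58.1% ± 10.6 in the input, 42.1% ± 13.5 in the MS2 control and 45.8% ± 6.83 in the 3'UTR eluate, on few counts. As identical sequences cannot show their origin, these splits say nothing about which copy was expressed.

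Whether the bait offers a site for the seed was read from the 3'UTR of CD274, which encodes PD-L1, in transcript CD274-202 (GENCODE, GRCh37), which spans 2692 bases at chr9:5467863-5470554 on the forward strand. The extent of the bait within this stretch was not examined. The 3'UTR holds 1 match of 8 bases to the seed of miR-320b, miR-320c and miR-320d, that is CAGCTTTA, the reverse complement of the seed followed by A, at chr9:5468641-5468648. It begins at base 779 of the 3'UTR and is shown with its surroundings, the match in capitals.
CD274 3'UTR site: catttaaatatCAGCTTTAcaattatg
This match was sought on the sense strand and includes a match of 7 bases at each end, the upstream CAGCTTT as well as the downstream AGCTTTA, each of which occurs 1 time. A further match of 6 bases, AGCTTT, lies at chr9:5469647-5469652. Of 4580 other genes whose 3'UTR is at least as long, 6.09% hold CAGCTTTA in the first 2692 bases, 30% hold CAGCTTT and 21.9% hold AGCTTTA. The shifted seed of miR-320e has no match of 7 bases, neither CCAGCTT nor CAGCTTA, in the CD274 3'UTR, and so none of 8. It has 1 match of 6 bases, CAGCTT, at chr9:5468641-5468646, within the site shown above. Matches of 6 bases are common, as 69.1% of the other 3'UTRs hold AGCTTT and 64.9% hold CAGCTT in the same stretch. A match is a description of letters, not a measured site. In these libraries, the members known here to have the match of 8 bases were lower in the 3'UTR eluate than in the MS2 control (miR-320b and miR-320c) or did not pass the test (miR-320d). The seed of miR-320a-3p, which had -2.37 in that comparison, was not compared with the 3'UTR, as no sequence was given for it.

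A further miRNA outside the family, miR-4429, carries the same seed and was picked from the sequences after the counts had been seen.
miR-4429: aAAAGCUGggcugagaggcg
Compared with miR-320b it differs by U11C, G19C and C20G. It had between 0 and 5 counts in every library and was not tested, so it allows no comparison.

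Other miRNAs that bypass Drosha or Dicer went different ways. The list held miR-484, whose hairpin is capped like that of miR-320a, and miR-451a, which is cut by AGO2 in place of Dicer. It also held miRNAs of 10 hairpins listed as mirtrons, a class named for hairpins that are spliced introns. Whether each of the 10 is made in this way was not tested. Of the 22 names on the list, 5 were tested, and the other 17 had a mean of at most 4.45 CPM in any group. Of the 5, 2 were higher and 2 lower with the MS2 bait than in the lysate, with 32.8% and 37% of all tested miRNAs called in these directions. The numbers were 1 higher and 1 lower for the PD-L1 3'UTR against the MS2 control (31.4% and 28.7% of all tested miRNAs), and 2 higher and 3 lower against the input (34.1% and 32.4%). miR-451a and miR-877-5p passed the filter only through the trapped groups, miR-1226-5p only through the MS2 control, and miR-1226-3p without the MS2 control. Their calls against the groups where they were low therefore lean on the filter. Sequences are shown for the capped hairpin and a product of each tested mirtron, and none of these 3 shares the seed of miR-320b.
miR-484: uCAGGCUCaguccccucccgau
miR-877-5p: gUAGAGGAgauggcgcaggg
miR-1226-3p: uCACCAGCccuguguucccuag

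miR-484, on the forward strand at chr16:15643301-15643322 (GRCh38.p14), moved against miR-320a-3p on the control resin. Unlike miR-320a-3p, miR-484 lies in the 5' arm, beginning at base 8 of a hairpin of 79 bases. It had 788.1, 825.3 and 935.4 CPM in the lysate, 32.97, 21.02 and 18.16 CPM in the control eluates and 17.7, 12.07 and 15.96 CPM in the 3'UTR eluate. The input was thus far above both trapped groups. In the MS2 control, miR-484 fell by 5.14 (log2, SE 0.26, adjusted p = 1.05e-07), so that the input was 35.3-fold the MS2 control, whereas miR-320a-3p was 1.68-fold higher there. Each value passed its own test in opposite directions, and the difference between these miRNAs was not tested. Between the trapped groups miR-484 had -0.63 ± 0.26 (adjusted p = 0.0531), and it passed without input replicate 1 or 2 or MS2 control replicate 2 or 3 (adjusted p from 0.0169 to 0.0462).

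The mirtron product miR-877-5p, from an intron of ABCF1, had 9.73, 15.17 and 18.25 CPM in the lysate, 23.92, 19.43 and 12.86 CPM in the control eluates and 23.36, 32.2 and 26.85 CPM in the 3'UTR eluate. It rose by 0.92 ± 0.34 (SE) in the 3'UTR eluate against the input (adjusted p = 0.0354) and did not pass in the other comparisons. This call was lost when any 1 of the 9 libraries was left out, with adjusted p from 0.0517 to 0.201. The call also leans on the filter, which the input libraries of miR-877-5p alone did not pass. miR-1226-3p, a mirtron product within DHX30, had between 38.77 and 51.59 CPM in the lysate, 1 count in each MS2 control library and between 6.71 and 16.99 CPM in the 3'UTR eluate. The groups did not overlap, as for most tested miRNAs. The partner strand miR-1226-5p showed the reverse order of the trapped groups, with between 7.57 and 32.97 CPM in the control eluates and 0, 0 and 2 counts in the 3'UTR eluate. Its higher level in the MS2 control than in the lysate (2.05 ± 0.61, adjusted p = 0.0111) no longer passed without input replicate 2, input replicate 3 or MS2 control replicate 1 (adjusted p = 0.0604, 0.0667 and 0.0629), nor did its lower level in the 3'UTR eluate than in the lysate without PD-L1 3'UTR replicate 1 (adjusted p = 0.0575). miR-451a, an erythroid miRNA, had between 2.10 and 2.48 CPM in the lysate, between 32.12 and 84.05 CPM in the control eluates and 736.3, 42.93 and 76.91 CPM in PD-L1 3'UTR replicates 1, 2 and 3. It was higher than the input in the control eluates (log2 4.80 ± 1.06, adjusted p = 0.00215) and in the 3'UTR eluate (6.92 ± 1.13, adjusted p = 0.000368), and between the trapped groups it had 2.12 ± 0.87 (adjusted p = 0.0558), or -0.09 without PD-L1 3'UTR replicate 1 (adjusted p = 0.883) and passed the test without replicate 2 or 3 (adjusted p = 0.012 and 0.0239). Against the input it had 4.63 without replicate 1 (adjusted p = 6.91e-06). Both calls against the input lean on the filter, which miR-451a passed only through the trapped groups. The sum of the 3 erythroid markers, of which miR-451a is 1, spanned 45.6 to 822 CPM in the latter group, with miR-144-3p at 0 counts there, and the part of blood RNA in this was not tested.

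**Figure D4:**
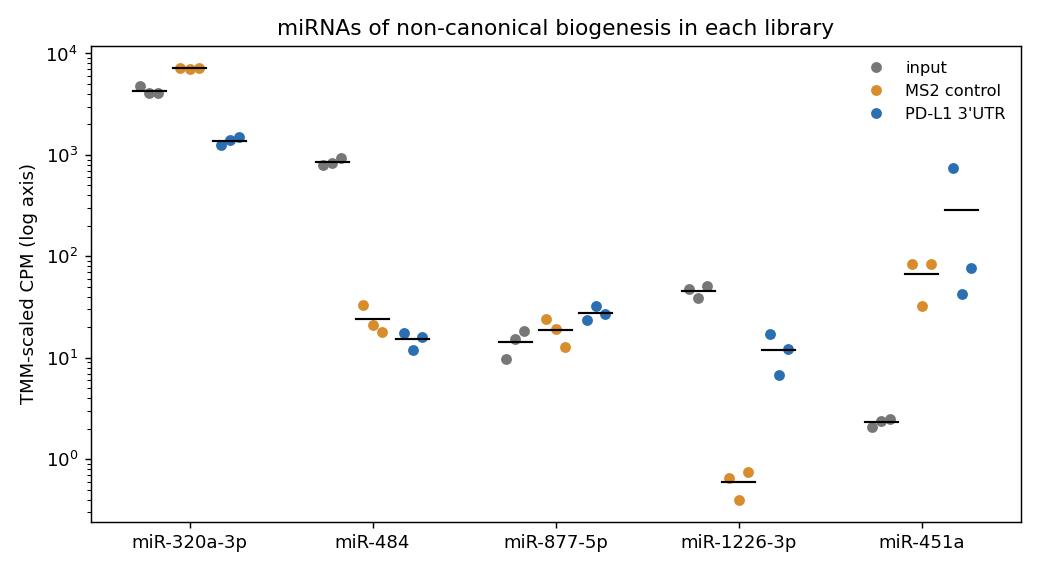
TMM-scaled CPM on a log axis for miR-320a-3p and 4 other miRNAs of non-canonical biogenesis in each of the 9 libraries, with bars at group means. miR-484, the other capped hairpin, drops from a mean of 849.6 CPM in the input to 24.05 CPM in the MS2 control, where miR-320a-3p increases from 4285 to 7179 CPM.

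The miRNAs whose level over the 9 libraries was most like that of the family sum included none of the non-canonical list. By Pearson's r of log2 CPM, they were miR-423-5p (0.992), let-7d-5p (0.987), miR-760 (0.987), let-7i-5p (0.986) and miR-3689a-5p (0.985). All had their highest mean in the MS2 control and their lowest in the 3'UTR eluate, as the family sum did. miR-423-5p, for instance, had 3626 CPM ± 527 (SD, n = 3) in the lysate, 9968 CPM ± 492 in the control eluates and 468 CPM ± 12.7 in the 3'UTR eluate. With 3 groups, such coefficients reflect mainly the order of group means. The non-canonical list holds only 5 of the 408 tested miRNAs, so its absence from the 5 most alike says little.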

How the data were processed

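The values deposited by the authors are raw counts of single-end reads at each mature miRNA locus, made, per the labels, with cutadapt 1.18, Bowtie2 2.2.6 (hg38) and featureCounts 1.6.3 on miRBase annotation. Treatment of reads with several alignments is not given in the sources used here. Columns were matched to samples by the sample descriptions. Members and lists were chosen with earlier results of these data known.

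Loci of one name were summed before testing. Tests used edgeR 4.0.16 in R 4.3.3 (filterByExpr, TMM factors, 1 model with 3 group means, glmQLFit and glmQLFTest, two-sided, Benjamini-Hochberg threshold of 0.05). The SE is the log2 fold change divided by the square root of F, and the 95% interval takes 1.96 SE. The edgeR step was tested on simulated data. Ratios used 0.5 added counts. Named miRNAs were the members, tested miRNAs of the non-canonical list and the 5 most alike by Pearson's r. Replicates differed beyond sampling noise (chi-square of 12.5 to 244 per degree of freedom). DESeq2 1.42.0, other scalings, filters, separate loci, a replicate block and leaving out each library were alternatives.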

Additional observations from a re-analysis of the deposited data

How the results depend on the processing

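Summed levels and calls against the input depended on the scaling. With library totals, the log2 ratio of the summed family was -0.94 for the PD-L1 3'UTR against the input and 1.39 for the MS2 control against the input, in place of -1.51 and 0.76. Members higher with the PD-L1 3'UTR than the input numbered 2 with library totals, with DESeq2's size factors and in the DESeq2 test, and members lower numbered 1 with library totals, in place of 1 and 2. Of all tested miRNAs, 47.1%, 35% and 35.8% were higher under these 3 settings in place of 34.1%, and 21.8% were lower with library totals in place of 32.4%. With each locus as its own row, 5 loci were lower in the 3'UTR eluate than in the MS2 control and 7 were higher in the MS2 control than in the lysate, because names with several loci then count more than 1 time (31.2% and 33.5% of all 448 loci tested were called in these directions), and the copy of miR-320d on chromosome 13 no longer passed against the input (1.34, adjusted p = 0.054). Leaving out each library moved the summed log2 ratio between -2.40 and -2.19 for the PD-L1 3'UTR against the MS2 control, between -1.72 and -1.50 against the input and between 0.57 and 0.79 for the MS2 control against the input. No call of the 4 tested members changed in these 9 fits. Members higher in the MS2 control than in the lysate numbered 4 or 5, as miR-320e cleared the filter in 5 of the fits and passed in 3. It cleared the filter through the MS2 control, where its level was highest. Of all miRNAs tested in the 9 fits, between 26.7% and 31.1% were higher in the MS2 control than in the lysate. For the other non-canonical miRNAs, an alternative chosen after seeing the data, the same omissions gave 1 higher and 2 or 3 lower for the PD-L1 3'UTR against the input, 1 or 2 higher and 1 or 2 lower against the MS2 control, and 1 or 2 higher and 2 lower for the MS2 control against the input. Of all miRNAs tested, 26.5% to 34.2% were higher and 29.5% to 33.5% lower for the PD-L1 3'UTR against the input. Against the MS2 control 25.2% to 31.2% were higher and 25.2% to 28.8% lower. For the MS2 control against the input the shares were 26.7% to 31.1% higher and 32.6% to 36.2% lower. Among the 4 tested members, the family sum and the ratios to miR-320a-3p, no result changed direction under any alternative run.

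Deviations of same-numbered libraries correlated between -0.179 and 0.129, and those of differently numbered libraries between -0.119 and 0.192. No pairing by replicate number was thus seen, but the labels do not say whether same-numbered libraries share a lysate. With the replicate number as a block, 3 members were lower in the 3'UTR eluate than in the MS2 control, 2 were lower and 1 higher than the input, and 4 rose in the MS2 control against the lysate, as without it. Of all tested miRNAs, 28.7% were lower in the 3'UTR eluate than in the MS2 control in this fit. Against the input 31.4% were lower and 33.1% higher there, and 31.6% rose in the MS2 control against the lysate. Depth limits miR-320e and miR-320a-5p most.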
